A study of Mus musculus with 24 samples.

Results

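The choroid, the vascular layer behind the eye's photoreceptors, lies against the retinal pigment epithelium (RPE), and 9 genes of vascular endothelium were followed together with Vegfa, the growth factor that RPE makes for those vessels. The 10 genes were taken by name (Vegfa, Kdr, Flt1, Tie1, Tek, Plvap, Egfl7, Esam, Cdh5 and Pecam1), and each matched 1 of the 31053 gene identifiers in the count files. RNA of isolated mouse RPE cells had been counted in 24 libraries read near the 3' end of polyadenylated transcripts. Mutants carried the floxed Ift20 allele with Dct-Cre and controls carried Dct-Cre, so the driver, which acts in pigment cells, was shared by all animals. There were 4 libraries of each genotype at each of 3 ages, 11 days after birth (P11), 29 days after birth (P29) and 3 months (3M). The background strain was mixed and sex was not recorded. The labels number biological replicates without saying whether a library came from 1 animal or a pool, so the spread behind every p-value is that of libraries and may be technical.

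VEGF-A secreted by RPE crosses its basal side and acts on the receptors KDR and FLT1 of the choriocapillaris, the fenestrated capillary bed next to the RPE. KDR carries most of the proliferation and survival signal, while FLT1 binds VEGF-A more tightly and signals less, which makes it in part a decoy. The angiopoietin receptor TEK and its partner TIE1 stabilise vessels, CDH5, PECAM1 and ESAM hold endothelial cells together, PLVAP forms the diaphragms of fenestrae, and EGFL7 is a matrix protein secreted by endothelium. Loss of VEGF-A from RPE is known to make the choriocapillaris regress in adult mice.

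The libraries held between 1513440 and 2889946 gene counts. Levels are CPM, gene counts relative to the library total, scaled by TMM factors. The floor was taken as 3 counts, which equal 1.04 to 1.98 CPM before TMM scaling and cover counting error only. Ift20 itself averaged 85.6 CPM ± 8.22 in mutants and 103 CPM ± 36.9 in controls at P11, 71.3 CPM ± 12.8 in mutants and 108 CPM ± 18.3 in controls at P29, and 111 CPM ± 9.4 in mutants and 134 CPM ± 18.3 in controls at 3M (SD, n = 4 each). Reads near the 3' end need not cover the deleted part, so those levels do not check the genotype labels. A list of 10 RPE genes, with Rpe65, Rlbp1 and Best1 among them, summed to between 16930 and 18160 CPM in the P11 libraries and between 51250 and 54190 CPM in the 3M libraries, so RPE markers were abundant throughout. In bulk RNA, fewer endothelial cells and less RNA per cell cannot be told apart.

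Start-site sequence from RefSeq (build GRCm38.p6, 250 bases before to 50 after the start) was at hand for 6 of the 10 genes, with 9 starts among them. The 3 printed here are Vegfa and the pair of its receptors, Kdr and Flt1, of which Flt1 was called at P11 and Kdr was not. Each lies on the minus strand, Vegfa at chr17:46032328-46032627, Kdr at chr5:75978406-75978705 and Flt1 at chr5:147725962-147726261, and each is written 5′ to 3′. Capitals mark the ETS core (AGGAAG or CGGAAG, with CTTCCT or CTTCCG on the other strand) and the GC box (GGGCGG, or CCGCCC on the other strand), and no ETS core overlapped a GC box.
Vegfa: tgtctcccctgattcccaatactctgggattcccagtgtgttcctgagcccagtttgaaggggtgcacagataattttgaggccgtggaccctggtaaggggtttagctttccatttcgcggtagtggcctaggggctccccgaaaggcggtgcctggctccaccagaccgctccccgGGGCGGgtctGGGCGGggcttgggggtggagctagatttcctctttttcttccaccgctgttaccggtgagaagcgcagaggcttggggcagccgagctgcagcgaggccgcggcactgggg
Kdr: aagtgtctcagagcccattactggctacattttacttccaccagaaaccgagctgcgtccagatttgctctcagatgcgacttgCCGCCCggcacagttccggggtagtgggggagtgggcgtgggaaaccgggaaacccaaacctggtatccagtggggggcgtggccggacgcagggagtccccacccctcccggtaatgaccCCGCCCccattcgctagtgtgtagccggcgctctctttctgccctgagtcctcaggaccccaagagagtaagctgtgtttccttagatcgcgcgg
Flt1: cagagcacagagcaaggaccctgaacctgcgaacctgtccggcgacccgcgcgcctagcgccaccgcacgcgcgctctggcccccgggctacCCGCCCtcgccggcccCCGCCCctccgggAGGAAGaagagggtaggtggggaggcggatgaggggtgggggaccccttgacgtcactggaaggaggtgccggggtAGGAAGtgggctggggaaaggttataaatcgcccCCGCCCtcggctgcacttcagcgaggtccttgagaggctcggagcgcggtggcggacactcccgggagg
The Flt1 start held 2 ETS cores, 3 GC boxes and a TATAAA motif at position -31 from the start. The Kdr and Vegfa starts shown held 2 GC boxes each and no ETS core of the 6 letters given. Both held the shorter GGAAG on the other strand (CTTCC), which on either strand was in 71.4% of all start-site sequences. An ETS core was found at 4 of the 9 starts, in Flt1, Tie1 and Egfl7, and in 46.5% of all 32851 start-site sequences of that length, while the GC box was in 35.7% and TATAAA in 13.6%. These are letter matches in a window, not binding sites.

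At P11 the comparison asked whether endothelial transcripts and Vegfa differ in RPE when Ift20 is targeted in pigment cells. Flt1, Plvap, Egfl7 and Esam were lower in mutants, Kdr and Vegfa were not called, and no member was called higher or had an unadjusted p under 0.05 in that direction. Thus 4 of the 9 endothelial genes fell, where 3.67% of all 12303 genes tested were called lower (edgeR quasi-likelihood test, Benjamini-Hochberg adjusted p under 0.05). In 6 of the 9 every mutant lay below every control, which held for 4.97% of all genes, and in none did every mutant lie above, which held for 5.36%. The median log2 fold change was -1.31 over the 9 endothelial genes, against -0.0016 over all genes tested.

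The ligand came out with no called difference. Vegfa had 154, 123, 132 and 129 CPM in P11 mutants, against 118, 152, 142 and 124 CPM in P11 controls. The groups overlapped, with a log2 fold change of 0.01 and a 95% interval of -0.20 to 0.22 (edgeR adjusted p = 0.976).

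Of the 2 VEGF receptors, Flt1 was called and Kdr was not. Kdr had 139, 113, 87.1 and 120 CPM in P11 mutants, against 118, 132, 128 and 146 CPM in P11 controls, and 2 of the 4 mutants lay within the control range and the other 2 below it. Its log2 fold change was -0.19 with a 95% interval of -0.57 to 0.19 (edgeR adjusted p = 0.661). Flt1 had 42.8, 47.5, 35.7 and 45.5 CPM in P11 mutants, against 113, 68, 91.1 and 104 CPM in P11 controls. All mutants were below all controls, at a log2 fold change of -1.14 (SE 0.23, edgeR adjusted p = 0.000238). Kdr made up 43.5% to 55.2% of the counts of the 9 endothelial genes in P11 mutants and 27.7% to 31.7% in P11 controls. The exact binomial 95% intervals, which cover counting error only, ran from 38.9% at the lowest to 59.5% at the highest in mutants and from 25.3% to 35.3% in controls.

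**Figure D1:**
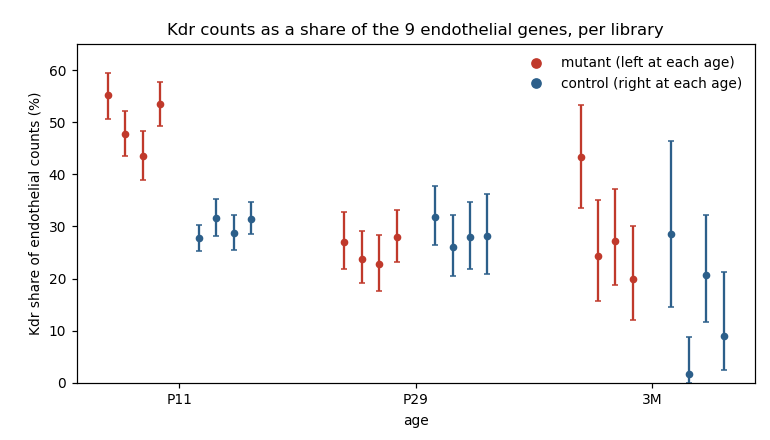
Kdr counts as a percentage of the summed counts of the 9 endothelial genes in each library (points, with exact binomial 95% intervals) by age, mutants left of controls. At P11 the mutants sit between 43.5% and 55.2% and the controls between 27.7% and 31.7%, while at P29 the groups overlap and at 3M the intervals are wide.

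Of the angiopoietin receptors, Tie1 had 10.8, 14.8, 13.8 and 5.28 CPM in P11 mutants, against 22.7, 28.3, 15.8 and 20.2 CPM in P11 controls. The groups did not overlap, but the log2 fold change of -0.96 (SE 0.54) was not called (edgeR adjusted p = 0.331). Tek had 3.44, 5.67, 7.15 and 0.812 CPM in P11 mutants, against 10.7, 2.41, 17.1 and 12.2 CPM in P11 controls. Replicate 2 of the controls lay inside the mutant range, with a log2 fold change of -1.31 (SE 0.78, edgeR adjusted p = 0.368). Neither receptor gene therefore has a called difference at P11, at low counts.

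Plvap, which marks fenestrated endothelium, fell most. It had 7.86, 6.98, 11.2 and 15.8 CPM in P11 mutants, against 46.5, 42.7, 51.3 and 61.1 CPM in P11 controls, a log2 fold change of -2.25 (SE 0.35, edgeR adjusted p = 1.32e-06). The highest mutant was far below the lowest control. The last 1000 bases of Plvap (chromosome 8, 71497765 to 71511752, minus strand, GRCm38) overlap Gtpbp3 on the other strand, and the sources used here do not say whether counting used strand. Gtpbp3 itself averaged 4.66 CPM in P11 mutants and 8.56 CPM in P11 controls and was not called (edgeR adjusted p = 0.471).

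Egfl7 had 17.2, 12.7, 13.4 and 11.8 CPM in P11 mutants, against 33.8, 75.2, 46.2 and 53.1 CPM in P11 controls, with no overlap and a log2 fold change of -1.91 (SE 0.35, edgeR adjusted p = 5.86e-05). Its last 1000 bases (chromosome 2, gene from 26580014 to 26593120, plus strand) overlap Agpat2 on the other strand and Gm20532 on the same strand. Agpat2 averaged 6.96 CPM in P11 mutants and 13.8 CPM in P11 controls (edgeR adjusted p = 0.114), and Gm20532 had no count in any library.

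Among the junction genes, Esam had 9.83, 11.8, 9.83 and 13.4 CPM in P11 mutants, against 42.5, 18.7, 41.8 and 29.2 CPM in P11 controls. The groups were separate, with a log2 fold change of -1.56 (SE 0.44, edgeR adjusted p = 0.0155), but the call was lost without control replicate 1 (adjusted p = 0.0885), control replicate 3 (0.0671) or mutant replicate 1 (0.0502). Cdh5, the cadherin of endothelial junctions, had 6.39, 8.72, 6.25 and 6.9 CPM in P11 mutants, against 16.4, 19.8, 27.8 and 26.6 CPM in P11 controls. Its groups did not overlap either, and its log2 fold change of -1.67 (SE 0.56) narrowly missed the threshold (edgeR adjusted p = 0.0517). DESeq2 (adjusted p = 0.0148), limma voom (0.0111), median-of-ratios size factors (0.0497) and a fit of the P11 libraries alone (0.0049) called it lower. Pecam1 had 14.7, 15.3, 15.6 and 4.87 CPM in P11 mutants, against 22.7, 30.7, 27.2 and 9.56 CPM in P11 controls, and replicate 4 was low in both groups. The difference was -0.83 on the log2 scale (SE 0.49, edgeR adjusted p = 0.368).

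**Figure D2:**
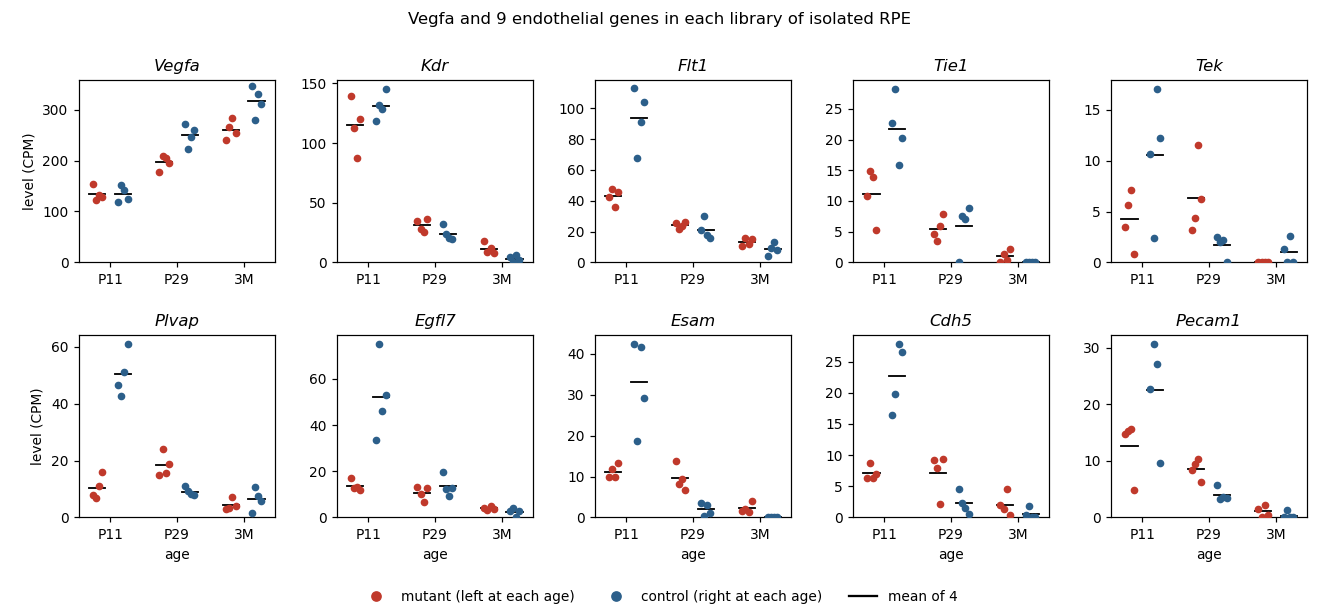
Level in CPM of Vegfa and the 9 endothelial genes in each of the 24 libraries (points) with the group mean (bar), by age, mutants left of controls; each panel has its own scale starting at 0. Plvap, Egfl7, Flt1, Esam, Cdh5 and Tie1 show all 4 P11 mutants below all 4 P11 controls, and Vegfa climbs with age in both genotypes.

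Wider lists, chosen with earlier results of these data known, were counted at P11 as well. Of 28 further endothelial identity genes, 22 were tested and 6 fell, with none higher and a median log2 fold change of -1.62. Ramp2, a receptor partner for adrenomedullin, averaged 61.7 CPM in P11 mutants and 155 CPM in P11 controls (log2 fold change -1.33, SE 0.14), Mmrn2 5.42 and 40.2 CPM (-2.86, SE 0.50), and Emcn 6.28 and 28.5 CPM (-2.19, SE 0.45), mutants before controls in each case. Of 9 blood-retina barrier genes, 8 were tested and 3 fell, the tight junction gene Cldn5 at -2.58 (SE 0.65) and the transporters Slco1c1 at -0.60 (SE 0.14) and Slc7a5 at -0.48 (SE 0.14). Of 5 lymphatic endothelial genes, 3 were tested and none was called in edgeR, with 1 higher at an unadjusted p under 0.05 and a median log2 fold change of 0.37. This list did not move as a group with age. In controls its sum rose from 485.5 CPM at P11 to 1220 CPM at 3M, though 2 of the 3 fell between P11 and P29. Of the 5 VEGF receptors and coreceptors, 4 were tested and 2 fell, Flt1 and the coreceptor Nrp1 at -1.15 (SE 0.22, edgeR adjusted p = 0.000168). Of the 6 genes of the angiopoietin system, 4 were tested and 1 fell, Ptprb, the phosphatase that opposes TEK, at -1.38 (SE 0.27, edgeR adjusted p = 0.000155). No VEGF ligand was called among the 4 tested of 5, with the related Vegfb at -0.04 (SE 0.15) and Pgf, the placental growth factor, at -0.81 (SE 0.36). Of 10 genes listed as responding to VEGF signalling, 8 were tested and 2 fell, Nr4a1, at -2.06 (SE 0.22), and Egr3, with 1 count over the P11 mutants and 31 over the P11 controls. In controls the sum of that list was 103 CPM at P11, 192 CPM at P29 and 138 CPM at 3M, unlike the falling endothelial sum. Whether VEGF signalling differed was not tested. Of 12 vessel regulators known from RPE, 3 fell: the chemokine Cxcl12 at -1.60 (SE 0.33), Col18a1, the precursor of endostatin, at -0.53 (SE 0.09), and Timp3, an inhibitor of matrix metalloproteinases, at -0.28 (SE 0.04). Of 13 hypoxia genes tested, 1 fell, Epas1, which encodes HIF-2 alpha, at -0.38 (SE 0.09). Over all genes tested at P11, 3.67% were called lower, 3.26% higher and 6.93% either way, and 1 of 13 is near the last share.

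Markers of other cell types shifted beside the endothelial genes at P11. The endothelial sum was 228 CPM ± 21.9 in P11 mutants and 438 CPM ± 19.7 in P11 controls (SD, n = 4), a ratio of 0.521, and 0.369 with Kdr left out. The ratio of mutant to control was 0.520 for pericyte and smooth muscle genes (4 of 9 tested fell), 0.782 for stromal fibroblast genes (3 of 10), 0.763 for melanocyte genes (2 of 6), 0.130 for myelin genes (5 of 5 tested) and 0.409 for lens genes (4 of 9). Pericyte sums ran from 178 to 232 CPM in P11 mutants and from 375 to 407 CPM in P11 controls, and myelin sums from 41.8 to 65 CPM in P11 mutants and from 347 to 473 CPM in P11 controls. Rod sums stood at 1.21 of control (5 of 10 rose), erythrocyte sums at 1.09 (2 of 6 rose), macrophage and microglia sums at 0.859 (0 of 10 called) and RPE sums at 0.967 (5 of 9 fell). Mitochondrial transcripts took 10.3% to 11.1% of counts in P11 mutants and 7.3% to 8.79% in P11 controls. The part of these shifts in the endothelial result was not tested.

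**Figure D3:**
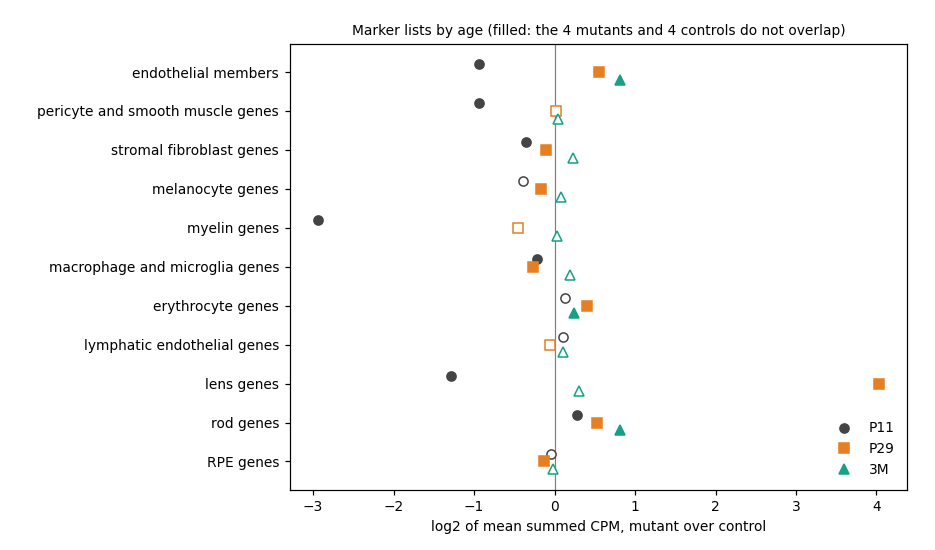
Log2 ratio of the mean summed CPM, mutant over control, for the 9 endothelial genes and 10 marker lists at P11 (circles), P29 (squares) and 3M (triangles); filled symbols mark sums whose 4 mutants and 4 controls do not overlap. The endothelial sum is below control at P11 and above it at P29 and 3M, while the lens sum is 0.409 of control at P11 and 16.3 times control at P29 and the rod sum is above control at all 3 ages.

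At P29 the same comparison called Esam higher and Vegfa lower in mutants. Esam rose (1.63% of all genes were called higher) and Vegfa fell (1.21% were called lower), and the other 8 were not called; in either direction 2.84% of all genes were. In 4 of the 9 endothelial genes, Tek, Plvap, Esam and Pecam1, every mutant lay above every control, which held for 3.67% of all genes tested. Vegfa was the member with every mutant below every control, as were 4.09% of all genes. The median log2 fold change was 1.01 over the 9, against -0.0007 over all genes.

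Vegfa had 178, 209, 205 and 196 CPM in P29 mutants, against 272, 224, 246 and 259 CPM in P29 controls. All 4 mutants were below all 4 controls, with a log2 fold change of -0.35 (SE 0.10, edgeR adjusted p = 0.0309). The call was lost without control replicate 1 (adjusted p = 0.155), 3 (0.0576) or 4 (0.0966), without mutant replicate 1 (0.163) or 4 (0.0817), and with no low-count filter (0.0726). RPE genes stood at 0.910 of control in sum at P29, with Rpe65 at -0.35 (SE 0.04) and Lrat at -0.50 (SE 0.06) among those that fell, and the part of that shift in the Vegfa difference was not tested.

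Esam had 13.8, 8.27, 9.39 and 6.66 CPM in P29 mutants, against 3.57, 0.399, 2.95 and 0.991 CPM in P29 controls. The lowest mutant exceeded the highest control, with a log2 fold change of 2.19 (SE 0.52, edgeR adjusted p = 0.0047). Plvap had 14.8, 24, 15.8 and 18.8 CPM in P29 mutants, against 11.1, 9.17, 8.11 and 7.92 CPM in P29 controls, a separated pair of groups whose log2 fold change of 1.01 (SE 0.36) was not called (edgeR adjusted p = 0.127). Cdh5 had 9.22, 7.88, 2.14 and 9.41 CPM in P29 mutants, against 4.64, 2.39, 1.48 and 0.495 CPM in P29 controls, with mutant replicate 3 inside the control range (1.61, SE 0.62, edgeR adjusted p = 0.199). Of the 12 control values, 3 rest on 3 counts or fewer, 2 for Esam and 1 for Cdh5.

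The remaining endothelial genes were not called at P29. Kdr averaged 31.1 CPM ± 5.33 in P29 mutants and 23.8 CPM ± 5.53 in P29 controls (SD, n = 4), a log2 fold change of 0.37 with a 95% interval of -0.07 to 0.82. Flt1 had 0.21 (SE 0.25), Egfl7 -0.33 (SE 0.37) and Tie1 -0.07 (SE 0.58) on the log2 fold change scale, all with overlapping groups. Tie1 had no count in control replicate 1 at P29 and 7.01 to 8.92 CPM in the other 3. Tek had 3.23, 4.33, 11.5 and 6.27 CPM in P29 mutants, against 2.5, 1.99, 2.21 and 0 CPM in P29 controls (1.85, SE 0.82, edgeR adjusted p = 0.341). Pecam1 had 8.3, 9.46, 10.2 and 6.27 CPM in P29 mutants, against 5.71, 3.19, 3.69 and 3.47 CPM in P29 controls, also without overlap (1.07, SE 0.54, edgeR adjusted p = 0.438).

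Of the 22 further endothelial genes tested, 1 was called at P29, Ramp2, which fell to 122 CPM in P29 mutants against 241 CPM in P29 controls (log2 fold change -0.98, SE 0.13), and the median was 0.44. In controls the mean of Ramp2 was higher at P29 than at P11, unlike that of any endothelial member. Which cells its transcripts came from was not tested. Of the blood-retina barrier list 2 of 8 tested fell, the glucose transporter Slc2a1 at -0.32 (SE 0.07) and the thyroid hormone transporter Slco1c1 at -0.65 (SE 0.13). Of 13 hypoxia genes tested, 1 rose, Ndrg1 at 0.62 (SE 0.15), and 2 fell, Slc2a1 and Epas1 at -0.33 (SE 0.08). Of the 12 vessel regulators Thbs1, the antiangiogenic thrombospondin, rose at 0.61 (SE 0.09), and Timp3 (-0.22, SE 0.04) and Col18a1 (-0.41, SE 0.09) fell. No VEGF receptor, coreceptor or angiopoietin gene was called in edgeR, with 1 of these 8 tested genes, Tek, at an unadjusted p under 0.05. Over all genes tested at P29, 1.63% were called higher, 1.21% lower and 2.84% either way.

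The endothelial sum was 122 CPM ± 9.06 in P29 mutants and 83.3 CPM ± 14.1 in P29 controls (SD, n = 4), a ratio of 1.46. The further identity genes summed to 0.717 of control (237 CPM in P29 mutants and 330 CPM in P29 controls) and the blood-retina barrier genes to 0.799. In both sums every mutant lay below every control. The Ramp2 difference given above was larger than that of the whole identity sum, and the median log2 fold change of the identity genes tested was 0.44. The barrier sum did not follow the endothelial sum with age, since in controls it rose from 1067 CPM at P11 to 1798 CPM at 3M. Beside them, macrophage and microglia sums stood at 0.828 of control (0 of 10 called in edgeR, 1 at an unadjusted p under 0.05), lens sums stood at 16.3 times control (8 of 9 rose), rod sums at 1.44 (10 of 10 rose) and erythrocyte sums at 1.33 (4 of 6 rose), while pericyte sums were at 1.02 with 0 of 9 called and fibroblast sums at 0.925 with 0 of 10 called. Erythrocyte sums ran from 3758 to 4037 CPM in P29 mutants and from 2569 to 3201 CPM in P29 controls. The part of blood, rod or lens RNA in the endothelial values was not tested.

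**Figure D4:**
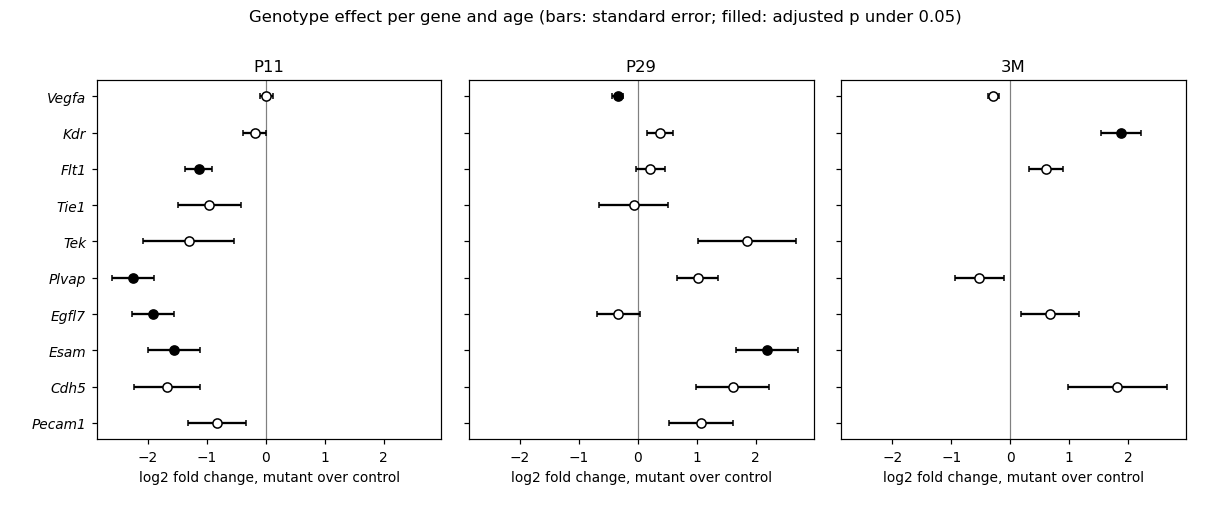
Log2 fold change, mutant over control, with its standard error for each of the 10 genes at P11, P29 and 3M; filled points are called at an edgeR adjusted p under 0.05. Points lie at or left of 0 for the endothelial genes at P11 and mostly right of 0 at P29; Tie1, Tek, Esam and Pecam1 at 3M are left out because 1 group had 3 counts or fewer.

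Whether the genotype effect itself differed between P29 and P11 was tested as an interaction. For 4 endothelial genes it was higher at P29, where 1.45% of all genes were, 1.18% being lower and 2.63% either: Esam at 3.74 (SE 0.69, edgeR adjusted p = 9.4e-05), Plvap at 3.26 (SE 0.50, adjusted p = 1.31e-06), Cdh5 at 3.27 (SE 0.83, adjusted p = 0.0117) and Flt1 at 1.35 (SE 0.34, adjusted p = 0.00928), as differences of log2 fold changes. Tek (3.15, SE 1.13), Pecam1 (1.91, SE 0.73), Egfl7 (1.58, SE 0.51), Tie1 (0.89, SE 0.79) and Kdr (0.56, SE 0.30) were not called, though Egfl7 was with DESeq2 (adjusted p = 0.0247), in a fit of the groups compared (0.036) and without control replicate 1 at P29 (0.0467). For Vegfa the difference was -0.36 with a 95% interval of -0.64 to -0.07 and was not called either (edgeR adjusted p = 0.216).

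At 3 months most endothelial genes were near the floor. Kdr and Esam rose in mutants, 2 of the 9 where 2.13% of all genes were called higher, 0.48% lower and 2.61% either way, and the same 2 were the ones whose groups did not overlap, which held for 5.07% of all genes. Kdr had 17.6, 8.71, 12.1 and 7.42 CPM in 3M mutants, against 4.21, 0.452, 6.1 and 1.62 CPM in 3M controls. The lowest mutant was above the highest control, at a log2 fold change of 1.88 (SE 0.34, edgeR adjusted p = 5.95e-05). Esam had 4, 5, 3 and 9 counts in 3M mutants and none in any 3M control, at least 6.99-fold higher against a floor of 3 counts over the group (edgeR adjusted p = 0.000996). Under limma voom neither was called (adjusted p = 0.0804 for Kdr and 0.0988 for Esam). The low-count filter took all ages together, and Esam averaged 33 CPM in P11 controls. Its place among the genes tested at 3M may therefore rest on its counts at younger ages.

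Some 3M members had no count in a whole group. Tie1 had 9 counts in 3M mutants, from 3 of the 4 libraries, and none in 3M controls, at least 3.0-fold higher against the group floor of 3 counts (edgeR adjusted p = 0.11). Tek went the other way, with no count in 3M mutants and 9 in 3M controls, at least 3.0-fold lower (edgeR adjusted p = 0.179). Pecam1 had 10 counts in 3M mutants and 3 in 3M controls, a ratio of 3.33 with an exact binomial 95% interval of 0.857 to 18.8. Cdh5 had 19 counts in 3M mutants and 5 in 3M controls (log2 fold change 1.82, SE 0.84, edgeR adjusted p = 0.376). Such counts cannot carry an order among the genes.

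The groups of Flt1, Plvap, Egfl7 and Vegfa overlapped at 3M. Flt1 had 10.6, 15.7, 11.7 and 15.3 CPM in 3M mutants, against 4.21, 9.03, 13.5 and 8.08 CPM in 3M controls (0.61, SE 0.29, edgeR adjusted p = 0.393). Plvap had 3.13, 3.48, 7.19 and 3.93 CPM in 3M mutants, against 1.68, 10.8, 7.41 and 5.66 CPM in 3M controls (-0.52, SE 0.42), and Egfl7 had 0.67 (SE 0.49), with the Plvap groups overlapping. Vegfa had 240, 266, 283 and 255 CPM in 3M mutants, against 347, 280, 331 and 312 CPM in 3M controls, with 1 mutant just above the lowest control. Its log2 fold change of -0.28 (SE 0.10, 95% interval -0.48 to -0.09) was not called over all genes (edgeR adjusted p = 0.123), but it was in a fit of the 3M libraries alone (adjusted p = 0.0148).

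The endothelial sum was 39.5 CPM ± 3.91 in 3M mutants and 22.5 CPM ± 7.2 in 3M controls (SD, n = 4), a ratio of 1.75, and 1.44 with overlapping groups once Kdr was left out. Rod sums stood at 1.76 times control beside it (10 of 10 rose), erythrocyte sums at 1.19 (4 of 6 rose) and pericyte sums at 1.03, with Rgs5 (0.60, SE 0.14) as the called pericyte gene. Their part in the endothelial values was not tested. Of the 22 further endothelial genes tested none was called at 3M in edgeR and 3 had an unadjusted p under 0.05. Of the 28 listed, 7 had no count in any 3M control, among them Robo4, Erg and Dll4. Of these 7, 3 (Aplnr, Sox18 and Sox7) had no count in any 3M mutant either, and Erg had none in any P11 control. No member passed the interaction between 3M and P29 (0.853% of all genes did), where 5 had an unadjusted p under 0.05 and DESeq2 called 2, Kdr and Tek, with Kdr nearest at 1.51 (SE 0.41, edgeR adjusted p = 0.05, not under the threshold). With 1 of the 16 libraries left out at a time, the Kdr value ran from 1.17 to 2.05 and its adjusted p from 0.00613 without control replicate 3 at 3M to 0.235 without mutant replicate 1 at 3M, under the threshold in 8 of the 16.

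With age the endothelial genes declined and Vegfa increased. In controls all 9 endothelial genes fell between P11 and P29, against 15.6% of all genes called lower and 32% either way, with a median log2 fold change of -2.46 against -0.02 over all genes. Esam changed most at -3.98 (SE 0.52), followed by Cdh5 at -3.26 (SE 0.62), and Tie1 least at -1.90 (SE 0.56). In 8 of the 9 every P29 control lay below every P11 control, as did 13.9% of all genes. From P29 to 3M in controls 6 of the 9 fell again, against 8.5% of all genes, with Kdr at -2.93 (SE 0.31) and Egfl7 at -2.44 (SE 0.44), while Tek, Plvap and Cdh5 were not called (Cdh5 was at an adjusted p of 0.0179 without control replicate 2 at 3M). Tie1 had no count in 3M controls and 56 in P29 controls, at least 17.4-fold lower at 3M. The Esam call was lost under limma voom (adjusted p = 0.0618), and a fit of only the groups compared, whose filter kept 5 of the 10 members, called 4 members, Vegfa among them, in place of 7. In 5 of the 9 every 3M control lay below every P29 control, as did 8.99% of all genes. The sum over the 9 was 438 CPM at P11, 83.3 CPM at P29 and 22.5 CPM at 3M in controls. From P11 to 3M in controls, erythrocyte sums went from 27940 to 2158 CPM and myelin sums from 405 to 51.5 CPM. Rod sums fell from 10580 to 3900 CPM, fibroblast sums from 3456 to 897 CPM and lens sums from 115 to 22.65 CPM. Pericyte sums went from 392.5 to 285 CPM. RPE sums rose from 17900 to 52940 CPM, and macrophage, melanocyte and lymphatic sums rose as well. The part of these shifts in the endothelial decline was not tested.

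Between P11 and P29 only Kdr (-1.88, SE 0.21) and Flt1 (-0.81, SE 0.24) of the 9 fell in mutants, against 15.2% of all genes called lower, and the median was -0.35. In the same 2 every P29 mutant lay below every P11 mutant, as did 16% of all genes. Plvap had a log2 fold change of 0.80 (SE 0.35, edgeR adjusted p = 0.0738, called at 0.0284 without mutant replicate 4 at P11) and Cdh5 of 0.02 (SE 0.57), and the difference from controls is the interaction given above, called for Esam, Plvap, Cdh5 and Flt1. From P29 to 3M all 9 fell in mutants, against 7.27% of all genes, with Plvap at -2.05 (SE 0.39), Esam at -2.05 (SE 0.52) and Kdr at -1.42 (SE 0.25). Tek had no count in 3M mutants and 61 in P29 mutants, at least 19.8-fold lower at 3M. In 8 of the 9 every 3M mutant lay below every P29 mutant, as did 9.1% of all genes. The Cdh5 call there (edgeR adjusted p = 0.047) was lost with most single libraries left out, with adjusted p up to 0.183 without mutant replicate 4 at 3M, and those of Flt1 (0.0668) and Tie1 (0.0669) were lost without mutant replicate 1 at 3M. Limma voom lost the calls of Egfl7 (adjusted p = 0.116), Cdh5 (0.0843) and Tie1 (0.0832), and that of Cdh5 was also lost with no low-count filter (0.0554) and with the replicate block (0.0648). The sum was 228 CPM at P11, 122 CPM at P29 and 39.5 CPM at 3M in mutants.

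Vegfa rose at each step in each genotype. In controls it gained 0.91 on the log2 scale (SE 0.10, edgeR adjusted p = 1.45e-12) from P11 to P29, where 16.5% of all genes were called higher, and 0.34 (SE 0.10, adjusted p = 0.00937) from P29 to 3M, where 3.49% were. In mutants it gained 0.55 (SE 0.10, adjusted p = 5.59e-06) from P11 to P29, against 16.4% of all genes, and 0.41 (SE 0.10, adjusted p = 0.00169) from P29 to 3M, against 5.44%. Every library of the later age lay above every library of the earlier one in each of these 4 steps, which held for 13.7% and 6.02% of all genes in controls and 15.3% and 8.96% in mutants. The control step from P29 to 3M was lost without control replicate 2 at P29 (adjusted p = 0.0609) or control replicate 1 at 3M (0.056). At 3M the mean level was 1.94 times that of P11 in mutants and 2.37 times in controls. In order of mean level the groups were the 2 at P11, which did not differ beyond their spread, then P29 mutants, P29 controls, 3M mutants and 3M controls, and the levels of P29 controls and 3M mutants overlapped. The RPE list summed to 17300 CPM in mutants and 17900 CPM in controls at P11, and to 52430 CPM in mutants and 52940 CPM in controls at 3M, and their part in the increase of Vegfa was not tested.

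**Figure D5:**
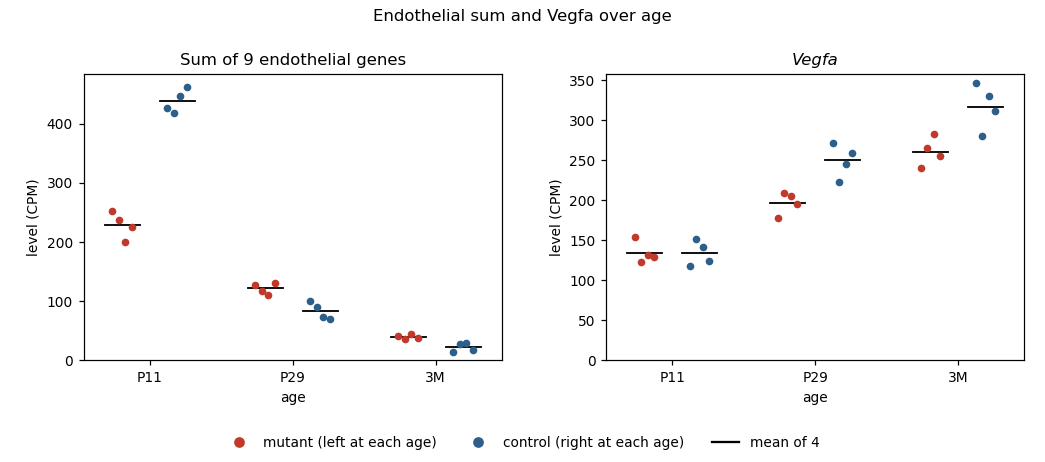
Summed CPM of the 9 endothelial genes (left) and CPM of Vegfa (right) in each library, by age, mutants left of controls, with bars at the mean of 4. The endothelial sum in controls is 438 CPM at P11 and 22.5 CPM at 3M, while Vegfa in controls is 134 CPM at P11 and 317 CPM at 3M.

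The genes nearest to each pattern were found among 10166 named genes averaging 5 CPM or more, by the root mean square difference of log2 group means, each gene centred over the 6 groups. Among the 5 nearest to Vegfa were Tmco1 (0.0574 log2 units), Iqgap2 (0.0585), Coq9 (0.0682) and Kat14 (0.0792). Tmco1 averaged 59.9 CPM in mutants and 62.8 CPM in controls at P11, and 121 CPM in mutants and 132 CPM in controls at 3M, as back-transformed log2 means. Nearest to the endothelial sum were Ldb2 (0.207), Mal (0.210), Cbfa2t3 (0.219), Dchs1 (0.227) and Nid1 (0.242), of which Nid1 encodes the basement membrane protein nidogen and Mal a protein of myelin and epithelia. Ldb2 averaged 15.2 CPM in mutants and 31 CPM in controls at P11, and 1.81 CPM in mutants and 0.492 CPM in controls at 3M. All these likenesses come from the same 24 libraries and rest on 6 group means.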

How the data were processed

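The authors deposited whole-number read counts per Ensembl gene, 1 file per library, with 31053 identifiers and 5 special entries that name no gene and stayed out of library sizes and tests (18.6% to 27.5% of entries were assigned to no feature). Per the labels, libraries were made with a 3' mRNA kit. The submitters' processing notes name STAR and mm10 and give no versions. What counted the reads, with which annotation, and whether strand or molecular identifiers were used is not given in the sources. Symbols and positions came from GENCODE M21 (GRCm38, the same assembly as mm10).

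Genes were tested with edgeR 4.0.16 in R 4.3.3 (TMM, filterByExpr on groups, robust quasi-likelihood fit, 12303 genes, Benjamini-Hochberg over all of them) on all 24 libraries with 1 mean per group. All 10 members passed the filter. It keeps genes by counts in as few libraries as the smallest group holds, so a gene can pass through the age at which it is high. Standard errors are the log2 fold change over the root of F. Intervals of fold changes use the fit's total degrees of freedom (residual and prior), and those of shares are exact binomial at 95%. The alternatives were median-of-ratios size factors, no filter, 5 CPM in 4 libraries, DESeq2 1.42.0, limma 3.58.1 voom, only the groups compared, the replicate number as a block, and leaving out each library. The script was also run on simulated counts. None of the 36 replicate pairs was a library deposited again: chi-square per gene ran from 2.98 to 7.15. The members and gene lists were chosen with earlier results of these data known. The text names all members, up to 3 called genes per list by smallest p for the lists it describes, and the genes of nearest pattern, of which 1 is not reported here.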

Additional observations from a re-analysis of the deposited data

Results flagged for a closer look

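The genotype effect differed between P29 and P11 for 4 endothelial genes in a test of the difference itself (edgeR, all genes): by 1.35 on the log2 scale for Flt1, 3.26 for Plvap, 3.74 for Esam and 3.27 for Cdh5. For Plvap and Esam every mutant was below every control at P11 and above every control at P29.

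A single library stood apart from the other 3 of its group for Pecam1 in P11 mutants, where replicate 4 had 4.87 CPM against 14.7 to 15.6 CPM, and for Pecam1 in 3M controls, where replicate 2 had 1.35 CPM and the others none. Chance gives about 1 in 20 such groups, and 2 of the 57 examined met the criterion.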

How the results depend on the processing

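The count of the 10 members called, either direction, was within 1.5 times its value in all but the following cases. Without the low-count filter it was 1 at P29, against 2. Under limma voom it was 0 at 3M, against 2. Fitted on only the groups compared it was 4 for 3M against P29 in controls, against 7, since the filter on those libraries kept 5 of the 10. The interaction of 3M with P29 gave 2 without the filter and with DESeq2, against 0. With 1 library left out at a time the count ran from 1 to 2 at P29 and from 0 to 1 for that interaction, where Kdr or Tek was the gene called. The cause of the other changes was not tested. The count does not show which members were called. Vegfa at 3M was called in a fit of the 3M libraries alone (edgeR adjusted p = 0.0148) and not in the main fit.

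Uncalled values near 0 changed sign. Vegfa at P11 was -0.0036 with only the groups compared and -0.0561 to 0.0736 with a library left out. Tie1 at P29 was 0.0455 with the replicate block, 0.97 with limma voom and -0.50 to 0.19 with a library left out. Cdh5 at P29 against P11 in mutants was -0.035 with median-of-ratios factors, -0.0353 with DESeq2, -0.16 with voom and -0.14 to 0.32 with a library left out. With a library left out, the interaction of 3M with P29 ran from -0.47 to 1.83 for Cdh5 and from -0.088 to 3.30 for Pecam1.

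Replicate numbers did not pair the samples (correlations of deviations -0.0357 to 0.0359). With the number as a block the members called were 4 at P11, 2 at P29 and 2 at 3M, and among single members only Cdh5 at 3M against P29 in mutants lost its call (adjusted p = 0.0648). At 3M, counts near the floor of 3 limit the precision of most endothelial genes, Kdr in controls among them.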
